A study of Mus musculus with 2 samples.

Results

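MHC class II presentation is described here by 8 genes taken by symbol from the 55536 named genes of the tables. They are the chain genes H2-Aa, H2-Ab1 and H2-Eb1, the DM genes H2-DMa, H2-DMb1 and H2-DMb2, the invariant chain gene Cd74 and the transactivator gene Ciita. They were chosen by name, and the rule itself uses no measured value. RNA of the nucleoplasm, a nuclear fraction, of C57BL/6J bone-marrow-derived macrophages (BMDM) was sequenced after ribosomal RNA had been removed. The cells had been treated with Lipid A, the TLR4-activating part of lipopolysaccharide, at 100 ng/ml for 12 h, kept without it for 12 h, and given 100 ng/ml again for 40 min. This single group has 2 libraries, biological replicates 2 and 1, made from 500 ng and 1 µg of RNA with 1 donor entry in common, and the age and sex of the animals were not collected. No untreated cells are part of the design, so the values are levels in restimulated macrophages and no test between conditions was possible.

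Class II molecules are pairs of an alpha and a beta chain that carry peptides from endosomes to the cell surface, where CD4 T cells read them. The invariant chain, encoded by Cd74, fills the peptide groove of newly made pairs and steers them to endosomes, proteases trim it there to a short remnant, and DM exchanges that remnant for peptide. CIITA does not bind DNA itself. It docks on a complex of RFX, CREB and NF-Y proteins at the promoters of these genes, and its own level sets class II transcription in macrophages, where interferon-gamma is the classical inducer.

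The expected counts of all named genes summed to 17213606 in library 2 and to 19797829 in library 1. A count of 0 allows up to 3 counts, a CPM (count scaled to the library's total) of 0.174 in library 2 and 0.152 in library 1. Intervals and floors cover counting error only. Mitochondrial genes took 6.60% of the counts in library 2 and 2.63% in library 1. All 8 macrophage marker genes were detected, with a summed level of 2480 TPM (a length-scaled level) in library 2 and 3116 in library 1. The highest were Lyz2, with 1201 TPM in library 2 and 1421 in library 1, Adgre1 with 443 and 687 TPM, and Csf1r with 258 and 318 TPM, in the same library order, and the lowest was Itgam with 56.5 and 63.3 TPM.

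Of the 8 genes, 7 were detected, meaning 10 or more expected counts in both libraries, beside 10991 of 22028 protein-coding genes (49.9%). H2-DMb2 was the gene that was not detected. The median level of all 8 was 19.9 TPM in library 2 and 36.0 in library 1, and the median of their means was 28.0 ± 11.3 TPM (SD, n = 2). That median stood at percentile 84.1 of the detected protein-coding genes, at 81.1 by library 2 alone and at 86.6 by library 1 alone. Among the detected members the levels spread from percentile 98.5 for Cd74 to percentile 52.8 for Ciita, with the chain genes between them.

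**Figure D1:**
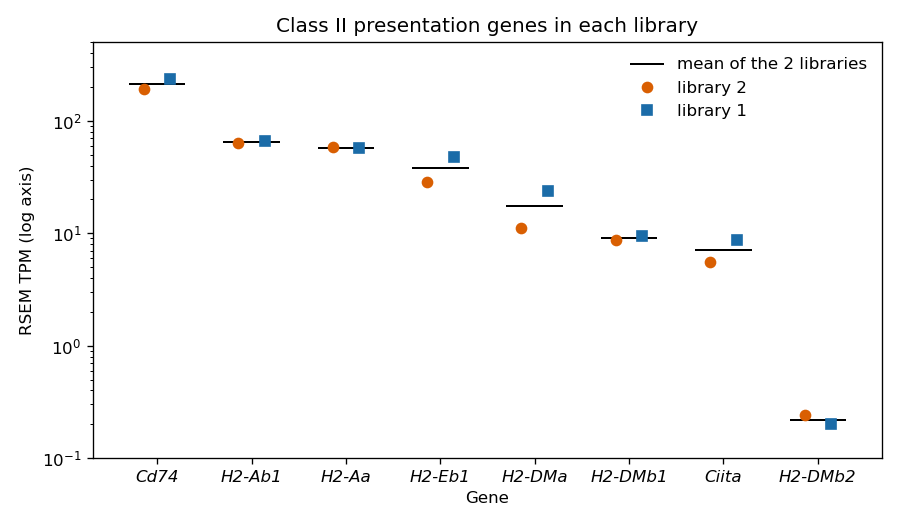
RSEM TPM (log axis) of the 8 class II presentation genes, library 2 (circles) left of library 1 (squares), with the mean of both as a line. Cd74 is highest at 194 TPM in library 2 and 235 in library 1, and H2-DMb2 lies far below the other genes at 0.24 TPM in library 2 and 0.20 in library 1.

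The chains of the I-A molecule were close to each other in level. H2-Ab1, which encodes the I-A beta chain (chromosome 17, 34257689 to 34269419, plus strand, mm10), had 63.8 TPM in library 2 and 66.9 in library 1, from 1108 and 1297 expected counts. H2-Aa, which encodes its alpha partner (34282744 to 34287823, minus strand), had 58.3 TPM in library 2 and 57.1 in library 1, from 1507 and 1531 counts. The RNA of the alpha chain was 0.915 times that of the beta chain in library 2 and 0.853 times in library 1. H2-Ab1 stood at percentile 93.8 and H2-Aa at percentile 92.9 of the detected protein-coding genes.

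H2-Eb1 encodes the beta chain of the second class II molecule, I-E. C57BL/6 mice are known to lack the alpha chain of I-E because its gene is disrupted, and the annotation lists that gene as the pseudogene H2-Ea-ps. H2-Eb1 (34305867 to 34316674, plus strand) had 28.8 TPM in library 2 and 48.2 in library 1, from 573 and 891 counts. Its mean of 38.5 ± 13.7 TPM (SD, n = 2) put it at percentile 88.7. H2-Ea-ps had 0 counts in both libraries. Relative to H2-Ab1 in the same library, H2-Eb1 was at 0.452 in library 2 and at 0.721 in library 1, so this ratio differed more between the libraries than that of the I-A chains.

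The invariant chain gene was the most abundant of the 8. Cd74 (chromosome 18, 60803848 to 60812652, plus strand) had 194 TPM in library 2 and 235 in library 1, from 4507 and 5061 counts. Its mean of 214 ± 28.7 TPM (SD, n = 2) stood at percentile 98.5. It made up 52.4% of the summed TPM of the 8 genes in library 2 and 52.3% in library 1, and it exceeded H2-Ab1 by 3.04 times in library 2 and 3.51 times in library 1. The deposited TPM of Cd74 lay above its own credibility interval in both libraries, which ran from 179.6 to 191 TPM in library 2 and from 216 to 229.6 TPM in library 1. Those of the other 7 genes lay inside theirs.

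DM is a pair of an alpha and a beta chain, and the mouse has a pair of beta chain genes. H2-DMa, the alpha chain gene (chromosome 17, 34119541 to 34139101, plus strand), had 11.1 TPM in library 2 and 23.7 in library 1, from 182 and 304 expected counts. H2-DMb1 (34153072 to 34160230, plus strand) had 8.74 TPM in library 2 and 9.49 in library 1, from 228 and 239.9 counts. H2-DMb2 (34143307 to 34151555, plus strand) had 0.24 TPM in library 2 and 0.20 in library 1, from 6.36 and 5.14 counts. Rounded to whole counts, the exact Poisson 95% interval is 2.20 to 13.1 for the 6 counts of library 2 and 1.62 to 11.7 for the 5 counts of library 1. Nearly all DM beta RNA was thus assigned to H2-DMb1.

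Of the counts of both beta genes together, H2-DMb2 held 2.56% in library 2 (6 of 234, Clopper-Pearson 95% interval 0.947% to 5.50%) and 2.04% in library 1 (5 of 245, 0.666% to 4.70%). The genes are alike in sequence. Compared was the form of each with the most RSEM counts in library 1. These were H2-DMb1-201 of 261 codons and H2-DMb2-203 of 130 codons, and the full-length H2-DMb2-201 was not compared. The H2-DMb1-201 transcript of 1404 bases and the H2-DMb2-203 transcript of 1414 bases were identical at 89.4% of positions aligned without a gap. With the 336 gap positions counted, the identity was 70.3%. Of the 31-base words of H2-DMb1-201, 32.1% also occurred in H2-DMb2-203. Reads can therefore be split between them, and their values are uncertain. The posterior SD that RSEM gave for the count of either gene was 0.72 in library 2 and 0.44 in library 1. The kallisto table gave H2-DMb2 more, with 30.4 counts in library 2 and 24.3 in library 1, and H2-DMb1 over H2-DMb2 was then 12.5 times in library 2 and 15.3 times in library 1, against 36.4 and 47.5 times by RSEM.

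Ciita (chromosome 16, 10480059 to 10528418, plus strand), whose product controls the other 7, had the lowest level among the detected members. It had 5.53 TPM in library 2 and 8.66 in library 1, from 397 and 604 counts. Its mean of 7.10 ± 2.21 TPM (SD, n = 2) stood at percentile 52.8. Nlrc5, the related regulator of class I genes, was 22.6 times Ciita in library 2 and 22.9 times in library 1, and 12.9 and 12.4 times by kallisto.

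By RSEM both libraries gave the same order, Cd74 highest, then H2-Ab1, H2-Aa, H2-Eb1, H2-DMa, H2-DMb1, Ciita and H2-DMb2, and the ranges of neighbours did not overlap. The gap between H2-DMb1 and Ciita was the smallest relative to the spread, since Ciita at 8.66 TPM in library 1 nearly reached H2-DMb1 at 8.74 TPM in library 2. By kallisto Ciita stood above H2-DMb1 in both libraries. The order of that pair is thus not settled by these tables.

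Differences between the libraries were described as log2 of (TPM + 1) in library 2 over library 1, less the median over the detected protein-coding genes, a shift of -0.27. None of the 7 detected members was over 2-fold apart, beside 176 of 10991 detected protein-coding genes (1.6%). With a pseudocount of 0.1 TPM that share of all genes was 4.74%. The members' median was 0.00 on this scale, with 4 higher and 3 lower in library 2. H2-Aa was highest at 0.31, followed by H2-Ab1 at 0.21, H2-DMb1 at 0.17 and Cd74 at 0.00. Ciita was lower in library 2 at -0.29, H2-Eb1 at -0.45 and H2-DMa at -0.76. By kallisto, centred in the same way, H2-Aa was at 0.62, H2-Ab1 at 0.37, Cd74 at 0.31, Ciita at -0.08 and H2-Eb1 at -0.16, and by TMM-scaled CPM H2-Ab1 was at 0.06.

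Among all detected protein-coding genes the 5th percentile of this ratio was -0.66 and the 95th was 0.61, so 6 members lay between them and H2-DMa lay outside, at percentile 2.97. H2-Eb1 was at percentile 12.4 and H2-Aa at percentile 80.5. Counting error of the whole gene's counts alone gives H2-DMa a 95% half-width of 0.27. That width leaves out how the counts were split among its forms, which also sets the TPM. The value of H2-DMa also depended on how reads were summed, at -0.42 by TMM-scaled CPM, -0.26 by kallisto TPM and -1.03 without centring. There is 1 library on each side and the RNA input differed between them, so the replicate and the input cannot be told apart.

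**Figure D2:**
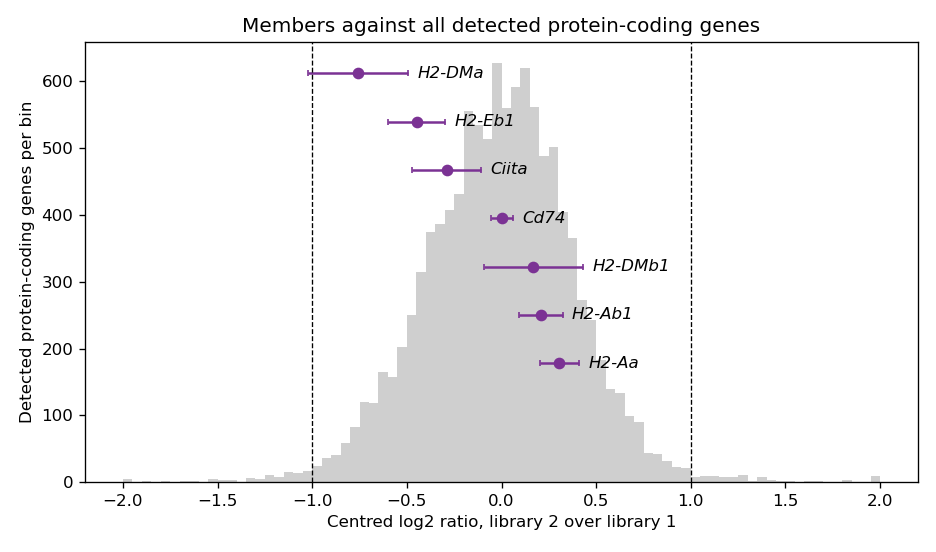
Centred log2 ratio of library 2 over library 1 for the 7 detected class II presentation genes (purple points, bars are the 95% counting error) over a histogram of all 10991 detected protein-coding genes, with values beyond ±2 drawn at the edge and dashed lines at 2-fold. All 7 points lie inside the dashed lines, from H2-DMa at -0.76 to H2-Aa at 0.31, while the bar of H2-DMa reaches past the lower line.

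The libraries hold nuclear RNA, so the annotated forms of each gene were described by their share of the gene's TPM. Reads from an intron not yet spliced out can be assigned to a transcript annotated as a retained intron, and these forms cannot be told apart. By RSEM, protein-coding transcripts held a median of 82.8% of a detected member's TPM in library 2 and 77.7% in library 1. The medians over 6520 protein-coding genes were 73.1% and 69.4%. Those genes had 100 or more counts in both libraries and at least 1 annotated transcript that is not protein-coding. H2-DMb1 was almost wholly 1 form by RSEM, H2-DMb1-201, with 96.5% in library 2 and 97.7% in library 1. Kallisto gave that form less, with 87.4% in library 2 and 75.5% in library 1.

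H2-Eb1 had a lower coding share than the other chain genes. Its protein-coding transcripts held 19.5% of its TPM in library 2 and 19.4% in library 1, at percentiles 4.14 and 3.44 of those 6520 genes. The largest form was H2-Eb1-205, annotated for nonsense-mediated decay, a pathway that destroys RNAs with an early stop, with 60.6% in library 2 and 47.6% in library 1. Its coding forms were H2-Eb1-203, with 11.5% in library 2 and 12.2% in library 1, and H2-Eb1-201, with 8.02% and 7.20%. The retained-intron form H2-Eb1-204 held 18.2% in library 2 and 31.3% in library 1. By kallisto the protein-coding share was 24.8% in library 2 and 29.4% in library 1, at percentiles 9.99 and 14.7, and H2-Eb1-205 held 50.6% and 26.3%. H2-DMa was about as low by kallisto, with a protein-coding share of 29.3% in library 2 and 28.6% in library 1. H2-Eb1 overlaps the antisense gene Gm20513 over 2204 bases, which had 0.81 TPM in library 2 and 1.09 in library 1. Whether counting used the strand is not given in the sources used here, so reads of an overlapping pair may be mixed.

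The full coding form was the largest form of each I-A gene. H2-Aa-201 held 78.3% of H2-Aa in library 2 and 76.1% in library 1, and the retained-intron form H2-Aa-203 held 12.9% and 16.9%. H2-Ab1-201 held 59.9% of H2-Ab1 in library 2 and 76.1% in library 1, and 52.1% and 62.6% by kallisto. All coding forms of H2-Ab1 held 63.2% in library 2 and 76.1% in library 1 by RSEM. The medians over the 6520 genes were 73.1% and 69.4%. H2-Ab1-203, a retained-intron form of 515 bases, ran the other way, with 20.5% in library 2 and 1.30% in library 1, from 86.9 and 5.82 counts. Kallisto gave the same form 14.6% in library 2 and 6.90% in library 1. The retained-intron form H2-Ab1-202 held 8.83% in library 2 and 9.70% in library 1, and H2-Ab1-204 held 3.61% and 7.92%.

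Cd74 makes a short and a long invariant chain, the long one with an added exon that encodes a protease-inhibiting domain. The short form of 215 codons, Cd74-201, held 71.5% of the gene's TPM in library 2 and 64.9% in library 1. The long form of 279 codons, Cd74-202, held 24.4% in library 2 and 24.1% in library 1, which is 0.341 and 0.372 of the short form. By kallisto this ratio was 0.518 in library 2 and 0.513 in library 1. The short form was thus higher by either program, while the size of the difference depended on the program. The retained-intron form Cd74-205 held 3.25% in library 2 and 9.76% in library 1 by RSEM, and 14.8% and 22.1% by kallisto.

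For H2-DMa the programs differed on the forms. By RSEM, H2-DMa-203, a processed transcript of 350 bases, had 1.12 TPM from 3.35 counts in library 2 and 8.70 TPM from 27.7 counts in library 1, and short lengths weigh heavily in TPM. Without it the gene had 9.96 TPM in library 2 and 15.0 in library 1. Kallisto gave this form 29.6% in library 2 and 30.1% in library 1, against 10.1% and 36.6% by RSEM. The whole gene had 10.3 TPM in library 2 and 8.02 in library 1 by kallisto, whose values were shifted up in library 2 by a median of 0.59 (log2) over all detected protein-coding genes. The coding form H2-DMa-205 held 47.9% in library 2 and 39.5% in library 1 by RSEM, and 24.9% and 25.0% by kallisto. The retained-intron form H2-DMa-202 held 11.6% in library 2, from 12.5 counts, and had 0 counts in library 1. The first 3094 bases of H2-DMa also overlap Brd2 on the other strand, which had 155 TPM in library 2 and 160.0 in library 1. H2-DMa-208, which starts inside that overlap, held 20.8% of H2-DMa in library 2 and 14.4% in library 1.

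Ciita is known to be transcribed from alternative promoters with first exons of their own, used by different cell types. Its 8 annotated transcripts fell into 3 groups by start. The 3 that start within 105 bases of the gene's first base held 13.8% of its TPM in library 2 and 16.2% in library 1, most of it in the retained-intron form Ciita-207. The 2 that start 8119 to 8220 bases downstream held 38.0% in library 2 and 37.6% in library 1, chiefly Ciita-201 of 1078 codons. The 3 that start 9687 to 9724 bases downstream held 48.2% in library 2 and 46.2% in library 1, chiefly Ciita-204, a form with 2 exons and 78 codons. By expected counts the order of the later groups was the other way, with 259 counts in library 2 and 371 in library 1 for the group at 8119 to 8220 bases, and 83.2 and 138 for the last group, whose forms are mostly shorter. By kallisto the last group held 63.0% in library 2 and 61.2% in library 1, more of it as Ciita-208 than as any other form.

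**Figure D3:**
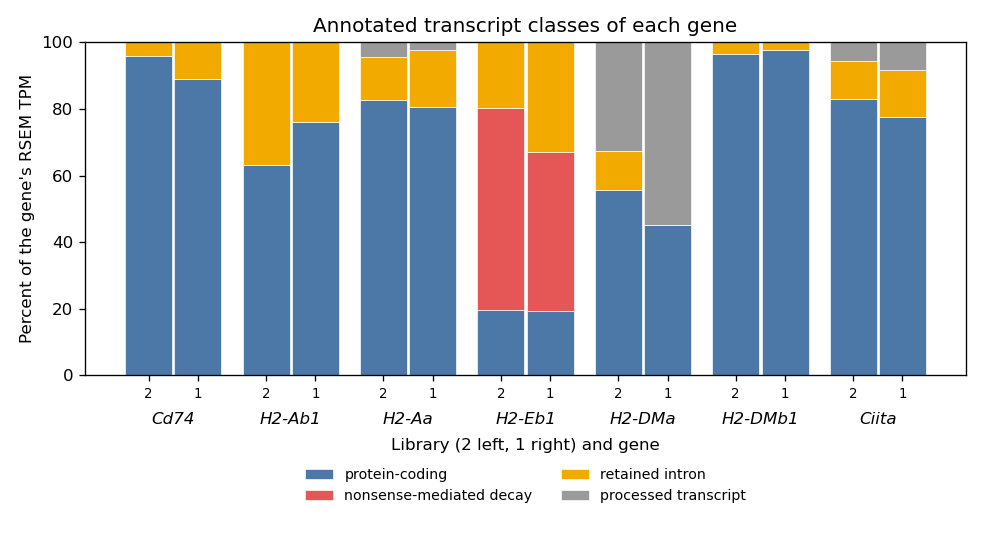
Percent of each detected gene's RSEM TPM in each annotated transcript class, library 2 left of library 1 for each gene. By RSEM, protein-coding forms hold the smallest part in H2-Eb1, with 19.5% in library 2 and 19.4% in library 1, and the next smallest in H2-DMa, with 55.8% in library 2 and 45.2% in library 1.

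The 6 members on chromosome 17 lie in an interval of 197 kb, from 34119541 to 34316674, which holds 11 protein-coding genes. The other 5 are Psmb9 and Psmb8, subunits of the immunoproteasome, Tap1 and Tap2, which pump peptides for class I molecules, and H2-Ob, the beta chain gene of the DM inhibitor DO. Tap1 was highest of the 11, with 121 TPM in library 2 and 190.0 in library 1. Tap2 had 40.6 TPM in library 2 and 76.1 in library 1, Psmb8 had 26.2 and 41.4 TPM, and Psmb9 had 18.3 and 35.7 TPM, in the same library order. By RSEM H2-Ob was near 0, at 0.26 TPM in library 2 and 0.15 in library 1, and together with H2-DMb2 it was the lowest of the interval. Kallisto gave H2-Ob 9.96 TPM in library 2 and 4.23 in library 1, above H2-DMb1, so its place is not settled by these tables. Neighbouring genes thus differed widely in level.

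**Figure D4:**
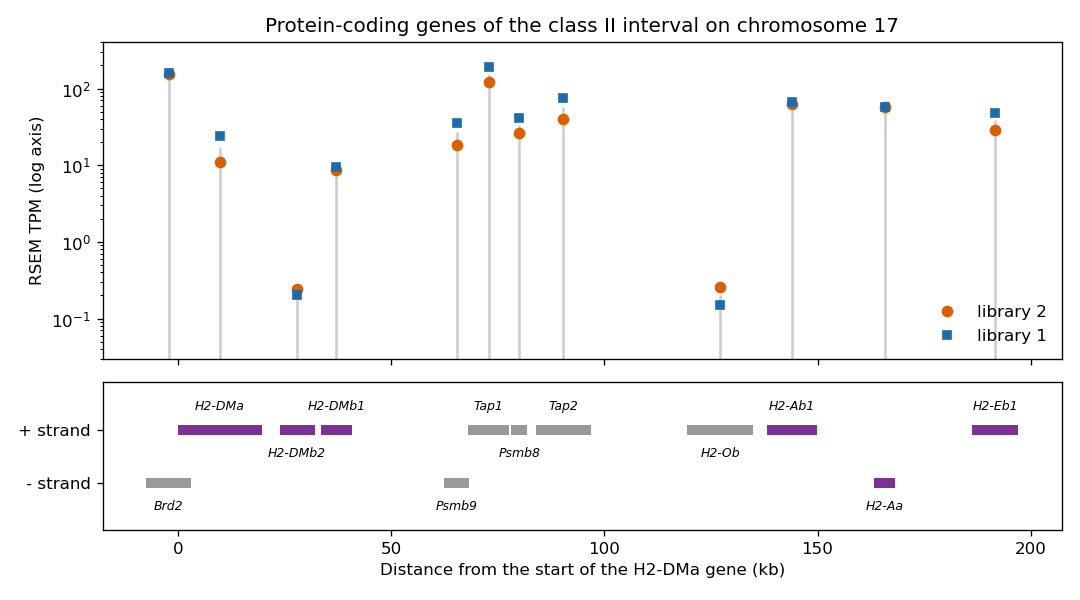
Upper panel: RSEM TPM (log axis) of protein-coding genes of the class II interval on chromosome 17 in library 2 (circles) and library 1 (squares), with grey lines up to the mean. Lower panel: the genes by strand and distance in kb from the start of H2-DMa, members in purple. By RSEM, H2-DMb2 and H2-Ob lie below 1 TPM among neighbours of 8.74 TPM or more, while kallisto (not drawn) gives H2-Ob 9.96 TPM in library 2 and 4.23 in library 1.

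Promoters of class II genes carry an X box, bound by RFX and CREB proteins, and a Y box, bound by NF-Y. Promoter windows from RefSeq (GRCm38.p6, 250 bases before to 50 after each start) were matched for 5 of the 8 members, and H2-Ab1, Cd74 and Ciita had no entry. The windows were searched on both strands for the letters AACNGATGA, the core of the X box with any base at N, and GATTGG, the Y box, which share no overlap here. The letters were chosen with these windows in view. The X letters occurred in 213 of 32851 windows of the table (0.648%), the Y letters in 5292 (16.1%) and both in 34 (0.103%), which belong to 30 genes. H2-DMb1, H2-DMb2 and H2-Eb1 held both, and H2-Aa held the Y letters alone. The H2-DMa windows held no X letters. Only these exact letters were searched, so a window without a match is not shown to lack an X box.

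The stretches below are printed because H2-DMb1 and H2-DMb2 share these letters and their spacing while their levels were 36.4 times apart in library 2 and 47.5 times in library 1 by RSEM, and 12.5 and 15.3 times by kallisto, and because the chain genes can be set beside them. RSEM placed all H2-DMb2 counts on H2-DMb2-203, which starts at 34143307, upstream of the printed H2-DMb2 stretch. Kallisto placed most on H2-DMb2-202, which starts at 34145271, downstream of that stretch. The gene levels are thus not levels of RNA shown to start at these stretches. Each stretch is given 5′ to 3′ with the X letters and the first match of the Y letters in capitals. The H2-DMb1 stretch ends just before its Y letters, and H2-Eb1 has a further Y match on the other strand, nearer to its start, left in lower case. They lie at chr17:34153099-34153128 (plus strand, 30 bases from the X letters onward, inside an exon that GENCODE places there), chr17:34145068-34145203 (plus), chr17:34305717-34305852 (plus) and chr17:34287827-34287962 (minus).
H2-DMb1: AACTGATGAtgctaggctgattcactcagt
H2-DMb2: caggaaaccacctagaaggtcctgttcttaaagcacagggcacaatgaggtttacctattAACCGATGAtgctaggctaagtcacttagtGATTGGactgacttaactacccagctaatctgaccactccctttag
H2-Eb1: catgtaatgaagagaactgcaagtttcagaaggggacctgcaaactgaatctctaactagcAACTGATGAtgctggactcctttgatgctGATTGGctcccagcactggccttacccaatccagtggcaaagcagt
H2-Aa: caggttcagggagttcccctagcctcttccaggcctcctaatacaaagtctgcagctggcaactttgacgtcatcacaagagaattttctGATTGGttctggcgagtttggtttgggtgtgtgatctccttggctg

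The X letters began at -92 in H2-DMb1, at -121 in H2-DMb2 and at -89 in H2-Eb1, counted from the RefSeq start. They were followed by 21, 21 and 20 bases before the first Y letters. The 250 bases before the starts of H2-DMb1 and H2-DMb2 were identical at 83.3% of positions aligned without a gap. With the 82 gap positions counted, the identity was 59.8%. A match is a description of letters, and no binding was measured.

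All 10 genes of the proteins that assemble at these promoters were detected. The highest were the NF-Y subunit gene Nfya, with 45.4 TPM in library 2 and 62.4 in library 1, the co-activator gene Ep300 with 39.8 TPM in library 2 and 45.2 in library 1, and Creb1 with 25.5 TPM in library 2 and 29.6 in library 1. The lowest was Rfxap, an RFX subunit gene, with 1.19 TPM in library 2 and 0.50 in library 1 from 15 and 21 counts. Of these 10, 5 were higher and 5 lower in library 2 after centring, with a median of 0.00.

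The 8 genes of factors known to act on Ciita were also all detected. Irf1, which binds the interferon-responsive Ciita promoter, had 300.0 TPM in library 2 and 618 in library 1. Irf2 had 37.5 TPM in library 2 and 71.8 in library 1, and Irf4 was lowest at 0.39 and 0.30 TPM. In library 2, 7 of the 8 were lower after centring, which puts the median of all detected protein-coding genes at 0. The median of the 8 was -0.69. None passed 2-fold, beside 1.6% of all detected protein-coding genes. Ciita itself was at -0.29 on the same scale, and a link between these values was not tested. The interferon-gamma receptor and kinase genes were detected in 4 of 4 cases, from Ifngr1 at 50.9 TPM in library 2 and 77.6 in library 1, Jak2 at 36.2 and 44.0 TPM and Jak1 at 29.8 and 37.0 TPM, to Ifngr2 at 16.1 and 23.7 TPM.

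The median level of the 9 genes of endosomal antigen and invariant chain processing stood at percentile 98.1, beside 84.1 for the members. Ctsb, a cathepsin gene, had 1619 TPM in library 2 and 1771 in library 1. Ctsd had 1379 TPM in both libraries, and Ctss, whose product makes the last cuts in the invariant chain, had 934 TPM in library 2 and 929.8 in library 1. All 9 were detected, and the lowest was Ifi30, which encodes a thiol reductase that opens disulphide bonds of antigens, at 7.51 TPM in library 2 and 7.94 in library 1.

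Genes of class II turnover were measured in 3 cases. Cd83, whose product opposes removal of class II from the surface, had 119 TPM in library 2 and 160.4 in library 1. March1, the ubiquitin ligase gene that it opposes, had 21.8 TPM in library 2 and 24.2 in library 1, and March8 had 18.8 and 19.3 TPM. CD74 also serves as a surface receptor for the cytokine MIF. Of the 4 genes of that function, Cd44, the co-receptor gene, had 61.9 TPM in library 2 and 49.0 in library 1, Mif had 7.62 and 10.2 TPM, and Cxcr4 had 5.05 and 5.73 TPM. Cxcr2 was not detected by RSEM counts, while kallisto gave it 1.98 TPM in library 2 and 0.71 in library 1.

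Class I genes had a higher median level than the members. H2-K1, a class I heavy chain gene with near-identical relatives that make its value uncertain, was 49.3 times H2-Ab1 in library 2 and 47.4 times in library 1. It had 3144 TPM in library 2 and 3170.2 in library 1. H2-D1 had 1491 TPM in library 2 and 2196 in library 1, and B2m, the light chain gene, had 963 TPM in library 2 and 583 in library 1. All 12 class I genes were detected, down to Erap1, lowest by the mean of both libraries, at 24.1 TPM in library 2 and 21.1 in library 1, and their median level was at percentile 97.7. The members and the class I genes differ in more than the kind of molecule, and no test of their difference was possible.

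Of the other class II genes, 0 of 4 measured were detected by RSEM counts. H2-Oa, the DO alpha chain gene, had 0.24 TPM from 5 counts in library 2 and 0.33 TPM from 7 counts in library 1. H2-Ob had 8 counts in library 2 and 7 in library 1, against 528 and 413 by kallisto, and H2-Eb2 had 8 and 3. DO is known mainly from B cells. B cell markers were low by RSEM, and a link between them and the DO genes was not tested. The summed level of these markers was 0.60 TPM in library 2 and 1.32 in library 1, with 0 of 7 detected and Pax5 at 0 in both. The highest by RSEM was Cd79b, with 0.41 TPM in library 2 and 0.71 in library 1.

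Dendritic cells are rich in class II, so their markers were summed as well. The sum of 8 genes was 2.76 TPM in library 2 and 3.19 in library 1, with 5 detected, Cd209a at 0 in both and Ccr7 highest at 1.16 TPM in library 2 and 1.18 in library 1. The next were Clec9a at 0.70 and 0.52 TPM and Siglech at 0.28 and 0.35 TPM, and Zbtb46 and Itgax were the lowest detected by the mean, each at 0.24 and 0.37 TPM. Among 4 T cell markers Cd3e and Cd3g were at 0 in both libraries by RSEM, and Cd4, a co-receptor gene, had 23.0 TPM in library 2 and 19.8 in library 1. In bulk RNA, fewer cells of a type and less RNA per cell cannot be told apart, and the part of such cells in the class II levels was not tested.

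**Figure D5:**
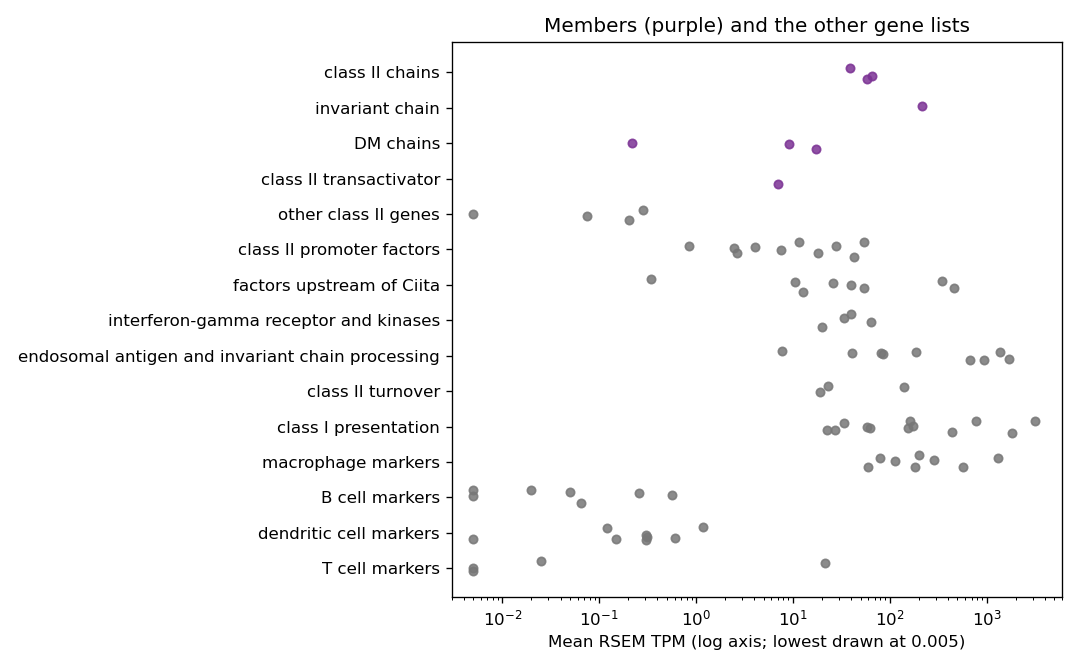
Mean RSEM TPM (log axis) of each gene of the class II presentation lists (purple) and of the other lists (grey), 1 point a gene, scattered vertically for view. Cd74 lies among the class I and macrophage genes. H2-Oa, H2-Ob, H2-Eb2 and H2-Ea-ps, which form the list of other class II genes, and the B cell markers lie below 1 TPM. Kallisto (not drawn) gives H2-Ob 9.96 TPM in library 2 and 4.23 in library 1.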

How the data were processed

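Each library has RSEM-style tables of genes and transcripts and a kallisto-style table of transcripts. Build mm10 and GENCODE M21 are named by the submitters' notes that accompany the files. Aligner and versions: not given in the sources used here. Expected counts, estimated counts of kallisto, TPM and the percent of a gene's TPM in each transcript are the values the authors deposited, per the file headers. The posterior SD and the credibility bounds are deposited scores of precision without a stated level.

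Members were joined by gene identifier. No row without a gene name entered the library totals. A gene was called detected at 10 expected counts in both libraries, and ratios had a pseudocount of 1 TPM, which understates changes of low genes. TMM factors came from edgeR 4.0.16 in R 4.3.3 on rounded counts, without a test. Python 3.11.15, pandas 2.3.3 and biopython 1.88 did the rest, and the ratio step was tested on simulated data. With 2 libraries of 1 group no p-value was computed, and SDs describe these libraries alone. The members and lists were chosen with earlier results of these data known. Named are all members, the main transcripts among those at 5% or more of a gene's TPM, every protein-coding gene of the interval, and in each list the 3 highest, the lowest detected and those at 0. One gene under this rule is not reported here. Likeness of pattern was not computed, as 1 group gives no pattern.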

Additional observations from a re-analysis of the deposited data

How the results depend on the processing

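The number of members detected was 7 with either library alone and at a minimum of 50 counts. Their median of 28.0 TPM became 12.4 by kallisto and 110 when TPM was rescaled over protein-coding genes outside the mitochondrial genome, and ranged from 19.9 to 36.0 with 1 library left out. Its percentile of 84.1 ranged from 81.1 to 86.6 with 1 library left out, and became 92.1 with no filter on low counts and 66.3 by expected counts not scaled by length. The share of Cd74 ranged from 52.3% to 52.4% with 1 library left out and was 52.9% by kallisto. The members' median log2 ratio of 0.00 became -0.27 without centring, where 1 member, H2-DMa, passed 2-fold. Without centring the genes over 2-fold apart split into 37 higher and 389 lower in library 2, by kallisto into 69 and 29, and in the centred values into 81 and 95. Of 68 recomputed values of single genes 30 stayed within the spread and 38 moved, among them all 8 rescaled over protein-coding genes. No paired analysis was possible because there is 1 group. H2-DMb2 at 6.36 and 5.14 counts is the member that depth limits most, and it passed 10 counts by kallisto alone.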

Other observations

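The programs disagreed on H2-Ob, the DO beta chain gene inside the class II interval. RSEM gave it 0.26 TPM in library 2 and 0.15 in library 1, and kallisto gave 9.96 TPM in library 2 and 4.23 in library 1. The kallisto signal sat in 1 transcript, the retained-intron form H2-Ob-207 of 1141 bases, with 521 counts in library 2 and 406 in library 1, for which RSEM listed 0 in both. By RSEM H2-Ob was 0.0297 times H2-DMb1 in library 2 and 0.0158 times in library 1, and by kallisto it was 1.87 and 1.49 times.

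The DM beta genes were also assigned to different forms of H2-DMb2. RSEM placed all of its counts on H2-DMb2-203, and kallisto placed 100% in library 2 and 75.0% in library 1 on H2-DMb2-202, both of 130 codons. The full-length form H2-DMb2-201 of 261 codons was at 0 in both libraries by either program.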
